A study of Mus musculus with 8 samples.

Results

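Collagens, laminins and the genes of the basement membrane were followed in sorted mouse nephron progenitor cells of a Vhl mutant and its heterozygous control. The members were taken by name and level: the genes for collagen chains, for the alpha, beta and gamma chains of laminin, and Nid1, Nid2, Agrn, Hspg2 and Fn1, where the mean level in the deposited table was at least 10. Of 60 such names among the 20254 genes of the table, 57 passed that minimum: 41 collagen genes, 11 laminin genes and 5 others. Lamb3 (mean 10.1) and Col17a1 (13.2) lay just above it, while Col19a1 (5.91), Col28a1 (4.70) and Col10a1 (2.29) lay below it and are not followed here.

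The mutant group was 4 libraries of cells with the genotype VHLNP-/-, and the control group was 4 libraries with the genotype VHLNP+/-. Cells of both groups carried the Six2EGFPcre transgene, which makes a GFP and Cre fusion under the control of Six2, a gene of nephron progenitors. Kidneys were taken at embryonic day 17.5 and digested with collagenase, the cells were sorted by GFP, and polyadenylated RNA was sequenced. The controls are heterozygous and not wild type, and nothing in the labels ties each library to an animal or pool of its own, so p-values measure the spread between these libraries, which may be partly technical. The series asks how Vhl governs the metabolism and differentiation of these progenitors, and matrix genes are read here as a part of that comparison.

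Basement membranes are sheets of matrix under epithelia. Laminins, each a trimer of an alpha, a beta and a gamma chain, and collagen IV, a trimer of its own chains, form the networks of the sheet, and nidogens, perlecan and agrin join or load them. In the kidney the makeup of the sheet changes with development: the mature glomerular membrane holds laminin with alpha 5, beta 2 and gamma 1 chains and collagen IV with alpha 3, 4 and 5 chains, while early structures carry laminin alpha 1 and beta 1 and collagen IV alpha 1 and 2. Fibrillar collagens are made mainly by stromal cells. Vhl is the substrate-binding subunit of the ubiquitin ligase that marks hypoxia-inducible factors for degradation, and it is also known to bind to fibronectin and to bear on matrix assembly.

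The libraries held 37252683 to 46515762 reads in mutants and 41204198 to 43905408 reads in controls. Levels are normalised reads, that is reads divided by the size factor of the library, and each log2 fold change is the mutant mean less the control mean of log2(normalised reads + 1). Vhl was at 285 to 336 normalised reads in mutants and 1134 to 1379 in controls and fell by 1.94 on the log2 scale (limma adjusted p = 4.22e-08). The 10 nephron progenitor markers summed to 111940 to 122044 normalised reads in mutants and 111730 to 126439 in controls, and the 10 early nephron markers to 28383 to 35435 in mutants and 29877 to 35868 in controls. The sums do not mean that each marker kept its level. At a limma adjusted p under 0.05, 1 of the 10 progenitor markers was called higher and 2 lower. Of the 10 early nephron markers 0 were called higher and 1 lower. Over all genes tested 5.40% were called higher and 3.03% lower. Stroma, podocyte, tubule, ureteric bud, endothelium and leukocyte markers were also detected, at lower sums. Mutant 2 and control 3 deviated alike: their deviations from their group means correlated across genes (r = 0.570). Each had the lowest sums of its group for the podocyte, stroma, tubule, ureteric bud and endothelium markers. In log2 levels control 3 correlated with the other controls at 0.982 to 0.985, and those with each other at 0.990 to 0.993. Mutant 2 correlated with the other mutants at 0.987 to 0.992, and those with each other at 0.990 to 0.993. On this measure control 3 stood apart from its group and mutant 2 hardly did. Calls of named genes that are lost without mutant 2 and control 3 are given with their adjusted p without them.

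In all, 6 of the 57 members differed between mutant and control libraries at an adjusted p under 0.05 over the 15381 genes tested. Lama5, Lamb1, Lamc3 and Nid2 rose, and Lamb2 and Col11a2 fell. That is 10.5% of the members, beside 8.43% of all genes tested. In the upward direction it is 4 members, 7.02%, beside 5.40% of all genes, and in the downward direction 2 members, 3.51%, beside 3.03%, so the shares of the whole group lie near those of all genes. By family, 4 of 11 laminin genes and 1 of 41 collagen genes were called, and the difference between these shares was not tested. The median log2 fold change was 0.31 over the laminins and -0.13 over the collagens, beside -0.01 over all genes tested. At an unadjusted p under 0.05, 6 members lay higher and 8 lower, 24.6% beside 23.3% of all genes. Mutant and control libraries did not overlap for 8 members, 14.0%, beside 15.3% of all genes, among them the 6 called ones and Col22a1. Mutants lay above for 5 of them, 8.77% beside 8.54% of all genes, and below for 3, 5.26% beside 6.72%. The authors' deposited table calls 9 of 56 members, 16.1%, beside 12.5% of its genes.

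Leaving out mutant 2 and control 3 changed several calls, and over all genes tested the calls went from 1297 to 764. Without control 3 and mutant 2, which leaves 3 libraries a group, Lamb2, Col11a2 and Col9a1 were called lower. Lamb2 then had an adjusted p of 0.00412 and Col11a2 of 0.0441 by limma. The 4 members that had risen were no longer called, with limma adjusted p = 0.0567 for Lama5, 0.0506 for Lamb1, 0.0680 for Lamc3 and 0.127 for Nid2. They kept their direction. The log2 fold changes of Lama5, Lamb1, Lamc3 and Nid2 were then 0.65, 0.34, 0.32 and 0.22, beside 0.78, 0.39, 0.31 and 0.22 with all 8 libraries. The part of the smaller number of libraries in the lost calls was not tested.

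**Figure D1:**
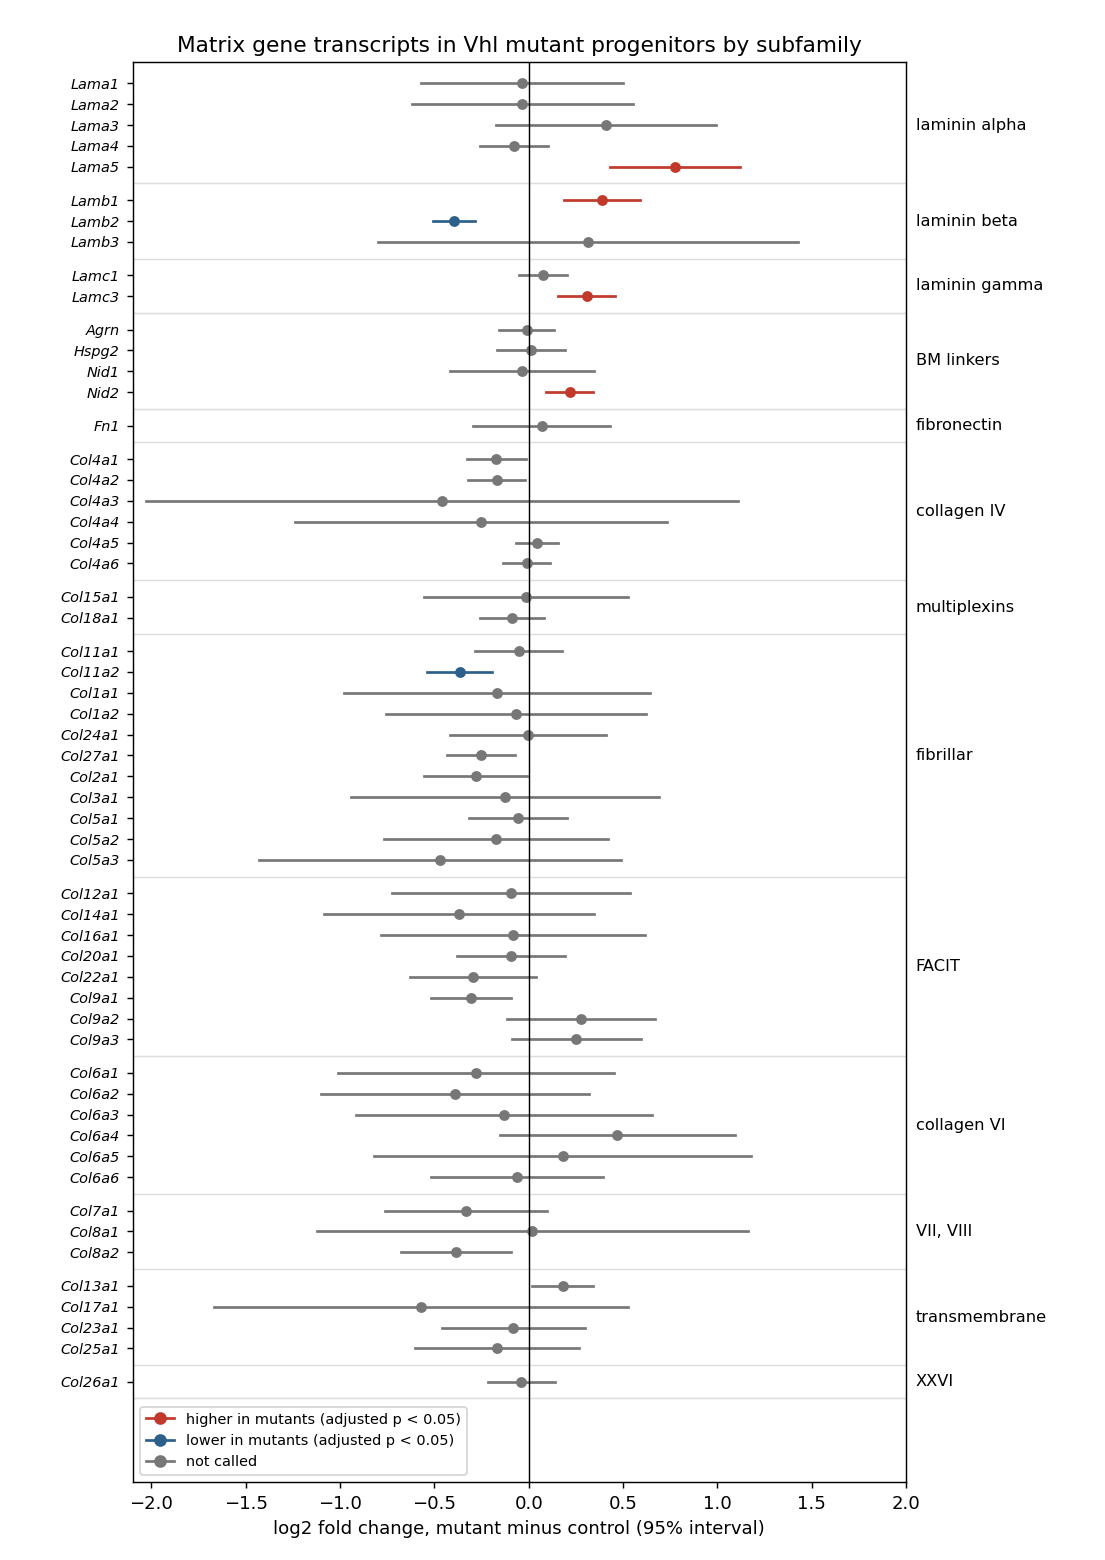
Log2 fold change (mutant minus control, x axis) of 56 members by subfamily, with points for the estimate and lines for its 95% interval from limma. Red points are Lama5, Lamb1, Lamc3 and Nid2, blue points are Lamb2 and Col11a2, and the other 50 members are grey; intervals are widest for Col4a3 and Col8a1.

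Among the laminin alpha chains, which carry the cell-binding end of the trimer, Lama5 rose. It had 10119, 10098, 8518 and 8814 normalised reads in mutants 1 to 4, against 5099, 5110, 4505 and 7607 in controls 1 to 4. All 4 mutant libraries lay above the highest control, and control 4 stood closest to them. The rise was 1.71-fold (log2 fold change 0.78, SE 0.15, limma adjusted p = 0.0151), and without control 2 the adjusted p was 0.0538. Lama5 lies on the minus strand of chromosome 2 from 180176373 to 180225859 (mm10), and no annotated exon of another gene overlaps its exons.

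The other alpha chains were not called. Lama1, the alpha chain of the earliest kidney epithelia, was at 2004 ± 562 in mutants and 2041 ± 426 in controls (SD, n = 4 each, 95% interval of the log2 fold change -0.57 to 0.50). Lama4, an alpha chain of vessel and mesenchymal membranes, was at 4657 ± 421 in mutants and 4919 ± 435 in controls (SD, n = 4 each, interval -0.26 to 0.10). Lama2, the alpha chain of muscle laminin, had an interval of -0.62 to 0.55. Lama3, the alpha chain of the epidermal laminin, was low, with 64.4 ± 18.0 in mutants and 49.0 ± 15.5 in controls (SD, n = 4 each, adjusted p = 0.395).

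The beta chains moved in opposite directions. Lamb1, which encodes the beta chain of early and widespread laminins, had 21750, 17524, 17793 and 18760 normalised reads in mutants, against 15277, 15234, 12205 and 15338 in controls. Every mutant library was above every control library, with mutant 1 the highest and control 3 the lowest. Lamb1 rose 1.31-fold (log2 fold change 0.39, SE 0.09, limma adjusted p = 0.0237), and without mutant 4 its adjusted p was 0.0694. Lamb2, the beta chain of the mature glomerular membrane and of the neuromuscular synapse, had 4343, 4528, 4333 and 4287 normalised reads in mutants, against 5779, 5756, 6039 and 5477 in controls. Its mutant libraries lay within a narrow band below the lowest control. Lamb2 fell by 0.40 on the log2 scale, to 75.9% of the control level (SE 0.05, limma adjusted p = 5.03e-04), and the call held without any 1 library (adjusted p at most 0.00386). Lamb1 lies on the plus strand of chromosome 12 from 31265234 to 31329644, and Lamb2 on the plus strand of chromosome 9 from 108479736 to 108490530, both in mm10 and with no overlapping exons of other genes. Lamb3 was at 10.7 ± 4.11 in mutants and 9.49 ± 7.40 in controls (SD, n = 4 each, adjusted p = 0.765).

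Of the gamma chains, Lamc3 was called and Lamc1, the common gamma chain of most laminins, was not. Lamc1 was at 22023 ± 1232 normalised reads in mutants and 20892 ± 756 in controls (SD, n = 4 each), and the 95% interval of its log2 fold change ran from -0.05 to 0.20. Lamc3, a less common gamma chain, had 754, 735, 731 and 696 normalised reads in mutants, against 607, 543, 605 and 603 in controls. The groups did not overlap, and control 2 was the lowest. Lamc3 rose 1.24-fold (log2 fold change 0.31, SE 0.07, limma adjusted p = 0.0171), and its adjusted p was 0.0556 without control 2. It lies on chromosome 2 from 31887291 to 31946539 (mm10), and 382 of its 6091 exon bases are covered by the antisense gene Gm13441. With the use of strand in counting unknown, its value is uncertain to that extent.

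Laminin chains are also made by cells other than the progenitors, among them epithelia. Ureteric bud and collecting duct markers summed to 6233, 3281, 4772 and 5281 normalised reads in mutants and 4881, 3981, 2189 and 5551 in controls over 11 of 11 genes. Their log2 fold changes were positive for 11 of 11, beside 7465 of the 15381 genes tested. None of the 11 was called, beside 8.43% of all genes, none was at 0 in any library, and control 3 was lowest. The 10 maturing tubule markers summed to 10971, 4464, 6555 and 4861 in mutants and 7269, 9379, 2521 and 8727 in controls, with 0 called and none at 0. In bulk RNA fewer cells of a type and less RNA per cell cannot be told apart, and the part of these cells in the levels of Lama5 was not tested.

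**Figure D2:**
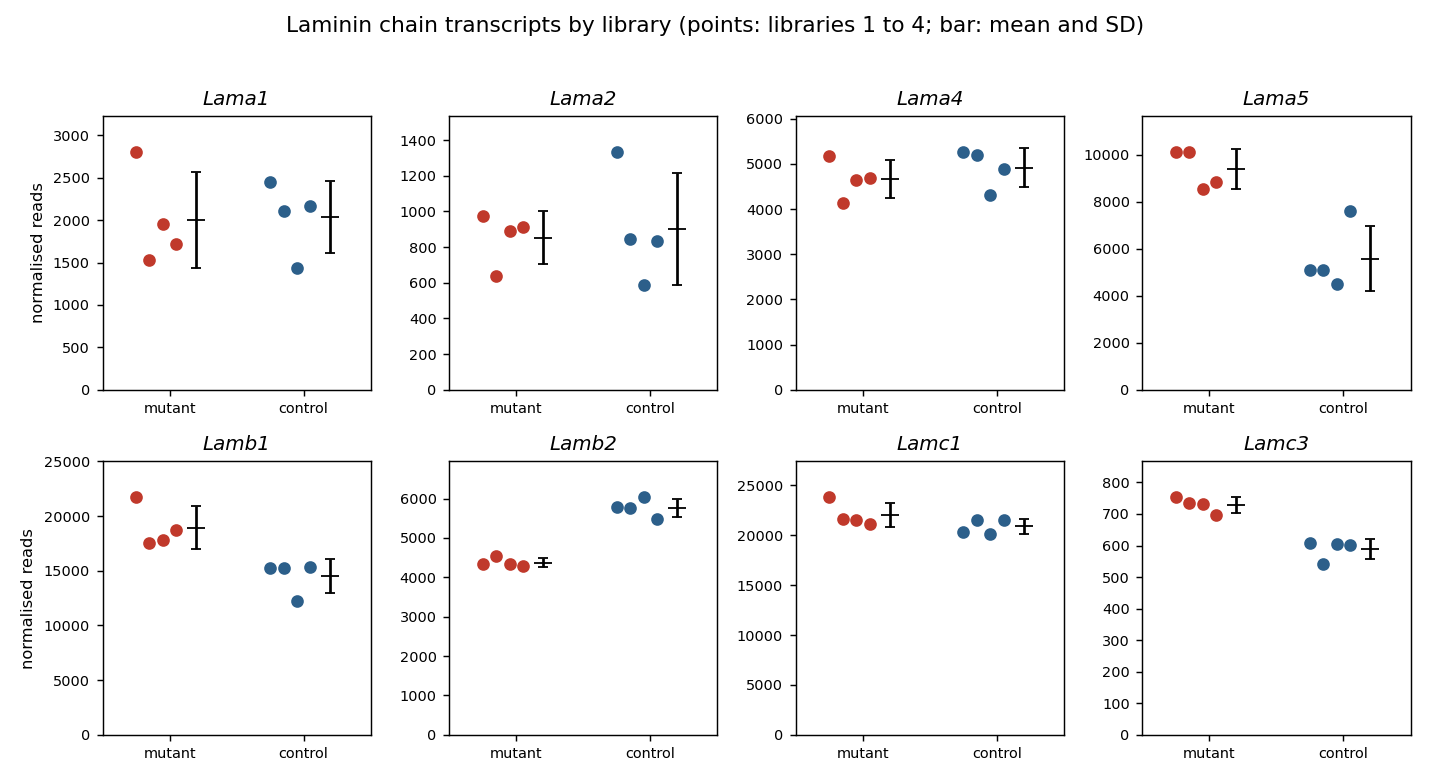
Normalised reads (y axis, from 0) of 8 laminin chain genes in the 4 mutant libraries (red, left) and the 4 control libraries (blue, right), with the mean and SD as a bar. The groups do not overlap for Lama5, Lamb1, Lamb2 and Lamc3, and they overlap for Lama1, Lama2, Lama4 and Lamc1.

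Levels of different genes were compared per length, as normalised reads per kb of annotated exon. On this scale the makeup of the laminin transcripts differed between the groups. Lamb1 made up 75.4, 70.3, 71.5 and 72.8% of the beta chain transcripts in mutants, against 61.8, 61.9, 55.3 and 63.1% in controls. The ratio of Lamb1 to Lamb2 per kb was 2.66 ± 0.301 in mutants and 1.55 ± 0.212 in controls (SD, n = 4 each), and the lowest mutant ratio (2.37) was above the highest control ratio (1.72). Lama5 made up 53.1, 62.0, 53.6 and 55.2% of the alpha chain transcripts in mutants, against 36.6, 38.9, 42.1 and 49.3% in controls. The share of Lama4 was 26.2 ± 1.80% in mutants and 35.2 ± 3.65% in controls, and that of Lama1 was 13.9 ± 2.68% in mutants and 18.0 ± 2.22% in controls (SD, n = 4 each). The Lama1 shares overlapped, at 11.1 to 17.3% in mutants and 15.8 to 20.7% in controls. Neither Lama4 nor Lama1 was called by its level, and a share falls when another chain of its class rises. All these shares are restatements of the levels above and were given no test of their own.

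Summed over the chains of a class, the alpha chains were at 1475 ± 134 reads per kb in mutants and 1168 ± 173 in controls, and the beta chains at 2632 ± 189 in mutants and 2412 ± 127 in controls (SD, n = 4 each). The sums did not overlap between the groups in either class, but they came close. The lowest mutant and highest control sums were 1395 and 1354 for the alpha chains, and 2508 and 2492 for the beta chains. In both groups the beta chains were the more abundant per kb.

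**Figure D3:**
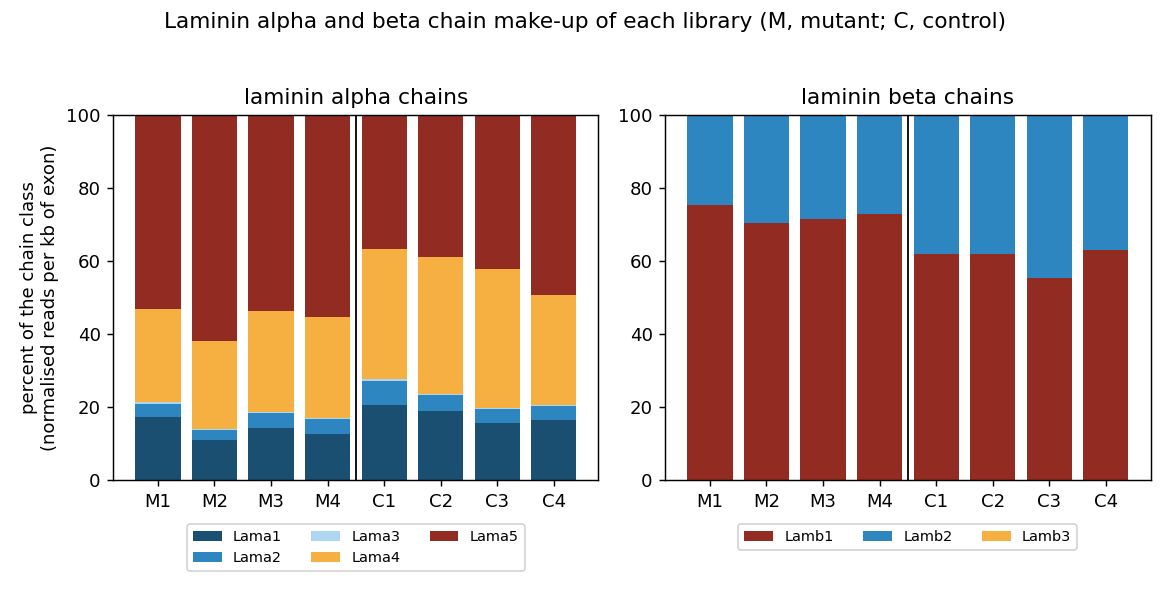
Makeup of the alpha and beta chain transcripts of laminin in each library, as percent of the class on the scale of normalised reads per kb of exon (y axis, 0 to 100), with mutants M1 to M4 left of controls C1 to C4. Lamb1 takes 70.3 to 75.4% of the beta chains in mutants and 55.3 to 63.1% in controls, and Lama5 takes 53.1 to 62.0% of the alpha chains in mutants and 36.6 to 49.3% in controls.

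The promoters of Lama5, Lamb1 and Lamb2 are shown because these laminin genes moved together or apart, and because Vhl acts on hypoxia-inducible factors. The windows are from RefSeq on GRCm38.p6, run from 250 bases before to 50 bases after the annotated start, and are written 5′ to 3′ on the strand of the gene. Capitals mark the core letters that these factors bind, ACGTG or GCGTG, on either strand (CACGT or CACGC when read here); a CACGTG, the E-box, would hold them as well, and none was found in the 4 windows printed. The Lama5 window is chr2:180225810-180226109 on the minus strand, the Lamb1 window chr12:31265043-31265342 on the plus strand, and the Lamb2 window chr9:108479612-108479911 on the plus strand.
Lama5: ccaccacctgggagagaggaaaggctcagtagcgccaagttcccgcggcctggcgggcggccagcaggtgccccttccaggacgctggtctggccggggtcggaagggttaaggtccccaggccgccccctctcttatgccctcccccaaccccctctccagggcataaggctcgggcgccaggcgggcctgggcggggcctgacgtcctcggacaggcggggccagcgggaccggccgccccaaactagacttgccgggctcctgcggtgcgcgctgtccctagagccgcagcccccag
Lamb1: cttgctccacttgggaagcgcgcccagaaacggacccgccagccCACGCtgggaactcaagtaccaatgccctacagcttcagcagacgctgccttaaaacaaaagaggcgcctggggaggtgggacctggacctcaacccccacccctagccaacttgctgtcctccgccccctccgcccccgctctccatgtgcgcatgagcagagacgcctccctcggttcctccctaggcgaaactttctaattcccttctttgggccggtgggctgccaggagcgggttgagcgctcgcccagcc
Lamb2: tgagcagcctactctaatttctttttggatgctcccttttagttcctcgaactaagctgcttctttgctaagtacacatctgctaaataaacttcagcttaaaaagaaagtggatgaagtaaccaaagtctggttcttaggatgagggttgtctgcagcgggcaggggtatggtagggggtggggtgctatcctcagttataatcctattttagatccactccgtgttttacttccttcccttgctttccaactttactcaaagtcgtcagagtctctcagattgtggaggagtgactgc
The Lamb1 window held the letters at 1 place, 206 bases before the start, and the Lama5 and Lamb2 windows at 0. The share of all 32851 RefSeq windows with these letters was 43.8%, and it was 35.6% of the 45 windows found for 40 of the 57 members. A match is a description of letters and not a binding site, and a window without a match says nothing of the factor.

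Of the genes that join the laminin and collagen networks, Nid2 was called. Nid2, a nidogen that bridges laminin to collagen IV, had 7159, 6989, 6778 and 6468 normalised reads in mutants, against 6228, 5550, 5991 and 5790 in controls. The lowest mutant was just above the highest control. It rose 1.16-fold (log2 fold change 0.22, SE 0.06, limma adjusted p = 0.0368), and of the 8 fits that left out 1 library it was called only in the one without control 1 (the highest adjusted p was 0.117). Nid2 lies on chromosome 14 from 19751265 to 19811787 (mm10), and 437 of its 5174 exon bases overlap Rtraf on the other strand, which averaged 6236 normalised reads in mutants and 7072 in controls. Its value is uncertain to that extent.

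The other linkers differed little between the groups. Nid1, the second nidogen, was at 3893 ± 477 normalised reads in mutants and 4047 ± 952 in controls (SD, n = 4 each, 95% interval of the log2 fold change -0.42 to 0.35). Agrn, the heparan sulfate proteoglycan agrin, was at 17489 ± 972 in mutants and 17632 ± 1245 in controls (SD, n = 4 each, interval -0.16 to 0.14). Hspg2, which encodes perlecan, was at 19932 ± 2255 in mutants and 19681 ± 1134 in controls (SD, n = 4 each, interval -0.17 to 0.19). Fn1, fibronectin, which binds integrins and collagens, had 13712, 9452, 10522 and 11944 normalised reads in mutants, against 13713, 11254, 8491 and 10309 in controls. The ranges overlapped almost entirely, and the interval of its log2 fold change ran from -0.30 to 0.43 (limma adjusted p = 0.853).

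Collagen IV gave no call in 6 genes, beside 8.43% called of all genes tested. Its 6 genes lie in 3 head-to-head pairs, and the annotated starts of a pair are 21 bases apart for Col4a1 and Col4a2 on chromosome 8, 72 for Col4a3 and Col4a4 on chromosome 1, and 1309 for Col4a5 and Col4a6 on chromosome X. Col4a1 and Col4a2, the chains of the widespread alpha 1 and alpha 2 trimer, were the most abundant members per kb. Col4a1 had 38726, 33198, 32078 and 33962 normalised reads in mutants, against 37418, 41805, 36897 and 39031 in controls. Col4a2 had 26994, 25075, 22855 and 24362 in mutants, against 26069, 30354, 27431 and 27885 in controls. Mutant 1 lay within the controls for both genes, and the other mutants lay below the lowest control. The log2 fold changes were -0.17 for Col4a1 (95% interval -0.33 to -0.01, limma adjusted p = 0.175) and -0.17 for Col4a2 (interval -0.32 to -0.02, adjusted p = 0.160).

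The ratio of the pair changed little from library to library. Per kb, Col4a1 stood to Col4a2 at 1.23 ± 0.0414 in mutants and 1.23 ± 0.0337 in controls (SD, n = 4 each). The window around the start of Col4a2, chr8:11312555-11312854 on the plus strand of GRCm38.p6, is shown because it holds the annotated starts of both genes, which are read outward from it on opposite strands. Its capitals mark the same core letters, at 1 place, 105 bases before the start of Col4a2. The start of Col4a1, at 11312826 on the minus strand, lies past that of Col4a2, at 11312805 on the plus strand. The first exons of both genes thus overlap by 22 bases, and the marked letters lie within the Col4a1 gene.
Col4a2: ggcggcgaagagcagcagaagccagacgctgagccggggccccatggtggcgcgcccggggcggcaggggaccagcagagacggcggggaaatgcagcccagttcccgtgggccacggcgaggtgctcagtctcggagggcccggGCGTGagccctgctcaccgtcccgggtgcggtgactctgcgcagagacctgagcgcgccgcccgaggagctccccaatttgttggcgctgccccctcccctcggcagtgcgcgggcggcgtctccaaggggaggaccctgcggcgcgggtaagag
The windows used for Col4a1 and Col4a2 overlap, so they are not independent members of the count of promoters.

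Col4a5 and Col4a6 were the steadiest collagen IV genes. Col4a5, whose chain enters both the alpha 3, 4, 5 trimer and the alpha 5, 6 trimer, was at 6422, 6385, 6344 and 6375 normalised reads in mutants, against 6406, 6195, 5807 and 6393 in controls. Its SD between libraries of a group, 0.0470 on the log2 scale, was the smallest of the 57 members. The 95% interval of its log2 fold change was -0.07 to 0.15, and that of Col4a6 was -0.13 to 0.11. As a share of collagen IV per kb, Col4a5 and Col4a6 together made up 12.9 ± 0.707% in mutants and 11.4 ± 0.611% in controls, and Col4a1 and Col4a2 made up 86.8 ± 0.696% in mutants and 88.2 ± 0.566% in controls (SD, n = 4 each).

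Col4a3 and Col4a4, which podocytes add to the maturing glomerular membrane, were low and variable. Col4a3 had 126, 75.1, 132 and 47.0 normalised reads in mutants, against 157, 318, 37.6 and 112 in controls, and Col4a4 had 260, 138, 216 and 165 in mutants, against 314, 376, 99.1 and 222 in controls. Control 2 was highest and control 3 lowest for both genes. Neither was called (limma adjusted p = 0.743 for Col4a3 and 0.779 for Col4a4), and the 95% interval for Col4a3, -2.03 to 1.11, allows a large change in either direction. The 11 podocyte markers, all detected in each library, had negative log2 fold changes for 9 of 11 with a median of -0.56. Among all genes tested 7916 of 15381 were negative, with a median of -0.01. Of the podocyte markers 1 was called higher and 1 lower, beside 5.40% and 3.03% of all genes. The podocyte markers summed to 15608, 10999, 12754 and 12877 normalised reads in mutants and 16603, 23399, 12980 and 15752 in controls, with control 2 highest and control 3 lowest of the controls. The part of podocytes in these levels, and in that of Lamb2, whose chain podocytes also make, was not tested.

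**Figure D4:**
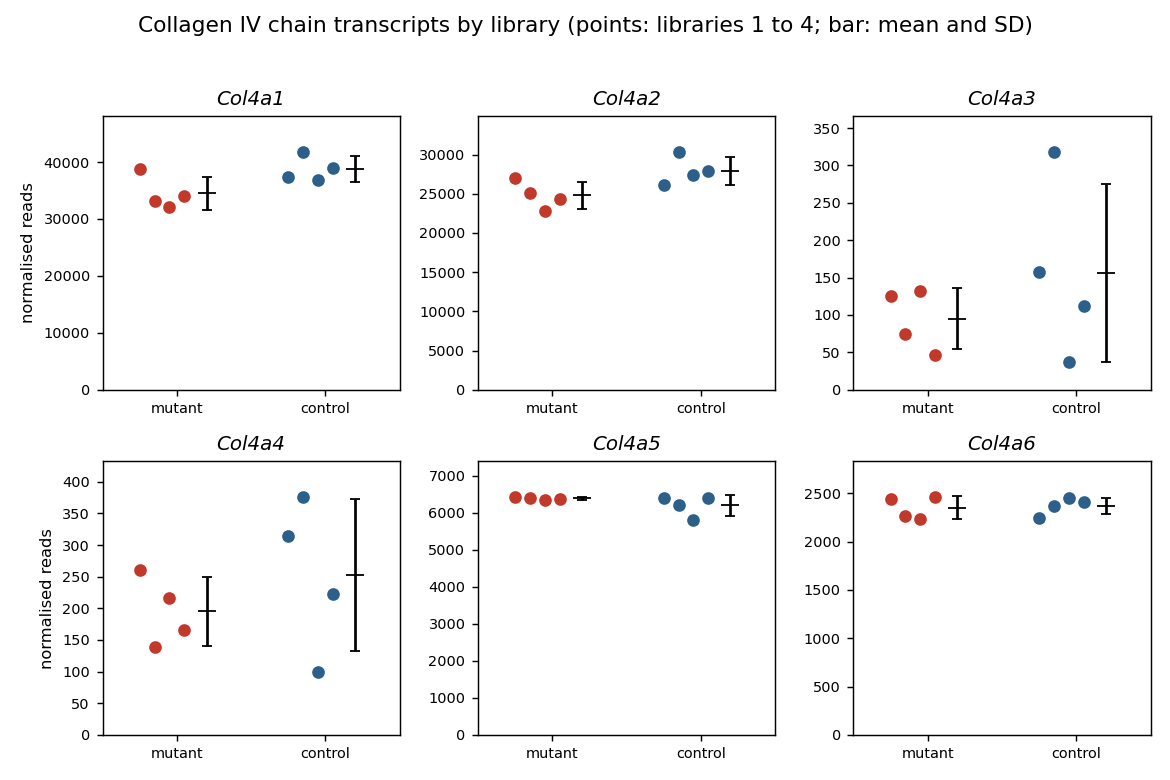
Normalised reads (y axis, from 0) of the 6 collagen IV genes in the 4 mutant libraries (red, left) and the 4 control libraries (blue, right), with the mean and SD as a bar. Mutants 2, 3 and 4 lie below the controls for Col4a1 and Col4a2, Col4a5 and Col4a6 differ little between libraries, and control 2 stands high for Col4a3 and Col4a4.

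Among the 11 fibrillar collagens, which form the striated fibres of connective tissue, 1 fell, 0 rose and 10 were not called. Of all genes tested 3.03% fell and 5.40% rose. Col11a2, a chain of collagen XI, the minor fibrillar collagen known from cartilage, had 1127, 1290, 1179 and 1209 normalised reads in mutants, against 1608, 1676, 1590 and 1339 in controls. All mutants were below control 4, the lowest control. It fell by 0.37 on the log2 scale, to 77.5% of the control level (SE 0.08, limma adjusted p = 0.0129), and its call also held without any 1 library (adjusted p at most 0.0447). It lies on the plus strand of chromosome 17 from 34039437 to 34066685 (mm10). Its partner chain Col11a1 was at 1205 ± 98.3 in mutants and 1259 ± 206 in controls (SD, n = 4 each, adjusted p = 0.810). Col2a1, the main cartilage collagen, which is abundant in these libraries, had 13406, 15085, 11214 and 12329 normalised reads in mutants, against 13487, 15580, 19731 and 14734 in controls, and was not called (log2 fold change -0.28, 95% interval -0.56 to -0.01, adjusted p = 0.203). The defining cartilage gene Acan stayed between 6.49 and 14.1 in mutants and between 6.26 and 11.6 in controls. The 9 cartilage markers in the table summed to 1244 to 1638 in mutants and 1070 to 1841 in controls. Sox9 made up the largest part of that sum, with 771 to 1054 in mutants and 714 to 1281 in controls, while Comp stayed between 1.89 and 6.79. Of the 9 markers 1 was at 0 in at least 1 library. Of the 6 tested 1, Matn1, was called higher, with 153 to 184 normalised reads in mutants and 115 to 133 in controls. The part of cartilage cells was not tested. Col27a1 was at 1976 ± 125 in mutants and 2364 ± 270 in controls (SD, n = 4 each, limma adjusted p = 0.0871). The authors' deposited table calls it lower, with an adjusted p of 0.0387.

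The stromal fibrillar collagens varied more between libraries of a group than between the groups. Col1a1 had 13895, 5628, 9566 and 10041 normalised reads in mutants, against 17389, 10279, 7522 and 8936 in controls. Col1a2, which joins it in collagen I, had 15078, 7678, 12202 and 12267 in mutants, against 19017, 12112, 8597 and 10576 in controls. Col3a1 had 18518, 8199, 14270 and 15426 in mutants, against 24588, 15348, 9869 and 12731 in controls. The same order recurs in each: mutant 1 and control 1 highest, mutant 2 and control 3 lowest of their groups. None was called (limma adjusted p = 0.824, 0.925 and 0.879 for Col1a1, Col1a2 and Col3a1), and the 95% interval for Col1a1 was -0.98 to 0.64. Col5a1, Col5a2 and Col5a3 had log2 fold changes between -0.47 and -0.05 and Col24a1 an adjusted p of 0.993, none of them called.

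This order of libraries recurs across the collagens. Of the 35 collagen genes other than collagen IV, control 1 was the highest control for 30 and control 3 the lowest for 18, and mutant 1 was the highest mutant for 24 and mutant 2 the lowest for 20. For 16 of the 35 all 4 held. The 11 kidney stroma markers in the table summed to 16356, 10122, 14699 and 15060 normalised reads in mutants and 18723, 13947, 9766 and 13018 in controls. The sum had the same highest and lowest library within each group, but not every stroma marker followed it. For Foxd1 control 1 was the lowest control, at 2696 beside 3168 to 3965 in the others, and mutant 4 the highest mutant, at 3428. Of these markers 0 of 11 were called, beside 8.43% of all genes tested, and none was at 0 in any library. Their log2 fold changes were positive for 8 of 11, with a median of 0.07. Those of the 35 collagen genes were negative for 29, with a median of -0.09. Among all genes tested 7916 of 15381 were negative. The part of stromal cells in the collagen levels was not tested. The SD between libraries of a group had a median of 0.33 (log2) over these 35 genes and 0.25 over the 11 laminins, beside 0.13 over all genes tested.

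**Figure D5:**
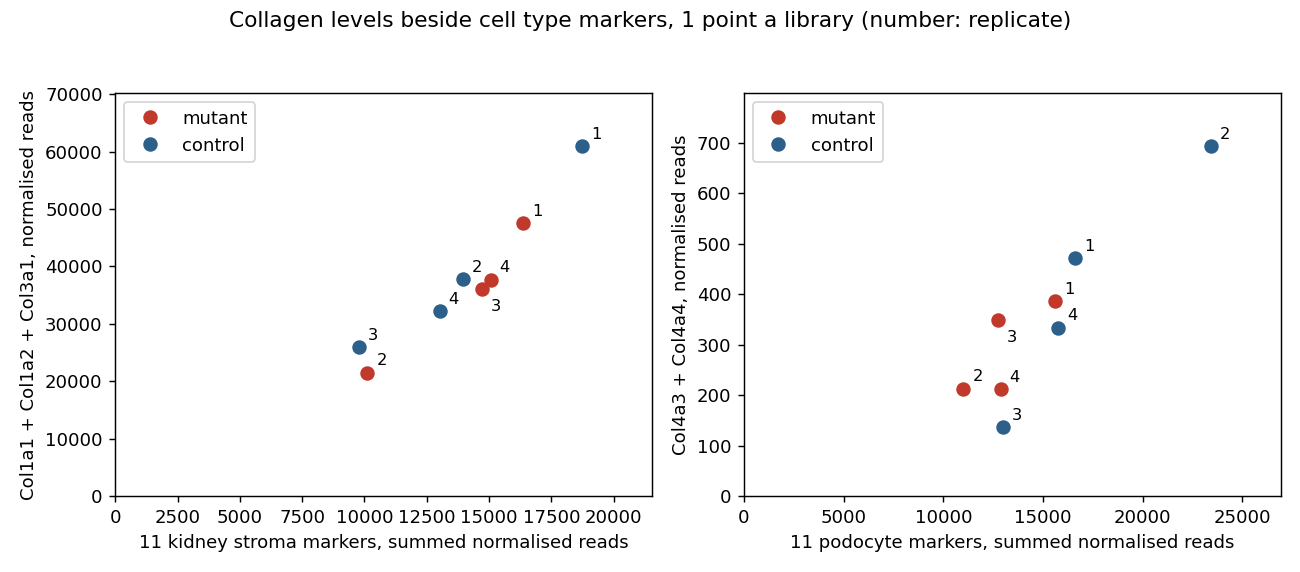
Summed normalised reads of Col1a1, Col1a2 and Col3a1 against those of the kidney stroma markers (left), and of Col4a3 and Col4a4 against those of the podocyte markers (right), with 1 point a library, mutants in red and controls in blue, numbered by replicate. Control 1 and mutant 1 are high and control 3 and mutant 2 low in the left panel, and control 2 stands apart in the right panel; the libraries share their depth and cells on both axes.

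Collagen VI, which forms beaded filaments around cells, gave no call in 6 genes, beside 8.43% called of all genes tested. Col6a1, Col6a2 and Col6a3, the chains of its main trimer, summed to 7821, 3878, 6133 and 5983 normalised reads in mutants, against 11700, 6920, 4875 and 6091 in controls. Control 1 was the highest control for all 6 collagen VI genes. Col6a2 had the lowest log2 fold change of that trimer, -0.39 (95% interval -1.10 to 0.32, limma adjusted p = 0.498). Col6a4, Col6a5 and Col6a6 were at 32.8 ± 3.26, 102 ± 46.7 and 280 ± 56.0 in mutants and 24.9 ± 11.4, 92.0 ± 49.3 and 297 ± 94.5 in controls (SD, n = 4 each).

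The FACIT collagens, which sit on the surface of fibrils and carry interrupted helices, gave 0 calls in 8 genes by limma, beside 8.43% of all genes. Col12a1 was the most abundant by reads, at 2588 ± 609 in mutants and 2804 ± 952 in controls (SD, n = 4 each, adjusted p = 0.887). The chains of collagen IX did not share a sign. Col9a1 had 1691, 2261, 1773 and 1740 normalised reads in mutants, against 2031, 2260, 2470 and 2420 in controls, where mutant 2 lay among the controls and the other mutants below them. Its log2 fold change was -0.30 (95% interval -0.52 to -0.09, limma adjusted p = 0.0804). The adjusted p was 0.0404 without control 1, 0.0110 without mutant 2 and 0.0278 without control 3 and mutant 2, and the authors' deposited table gives 0.0408. Col9a2 was at 203 ± 24.4 in mutants and 171 ± 50.7 in controls, with an adjusted p of 0.394 by limma and of 0.0477 without control 1, and Col9a3 at 104 ± 14.4 in mutants and 87.3 ± 11.6 in controls (SD, n = 4 each, limma adjusted p = 0.368). Col22a1 did not overlap, with 47.3 to 54.9 normalised reads in mutants and 56.7 to 67.0 in controls, and was not called (limma adjusted p = 0.273). Col14a1, Col16a1 and Col20a1 had adjusted p-values of 0.531, 0.908 and 0.726.

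The remaining collagens gave no call, beside 8.43% called of all genes tested. Col18a1, a basement membrane multiplexin whose end is the source of endostatin, was at 14701 ± 1359 normalised reads in mutants and 15602 ± 1122 in controls (SD, n = 4 each, 95% interval of the log2 fold change -0.26 to 0.08). Col26a1 was as abundant, at 15280 ± 1330 in mutants and 15700 ± 1354 in controls (SD, n = 4 each, interval -0.22 to 0.14). Col15a1, the other multiplexin, had an interval of -0.55 to 0.52. Col7a1, the collagen of the anchoring fibrils of skin, was at 805 ± 163 in mutants and 1013 ± 210 in controls, and Col8a2, a network collagen, at 506 ± 70.3 in mutants and 665 ± 123 in controls (SD, n = 4 each, limma adjusted p = 0.337 and 0.106). Col13a1, a transmembrane collagen, was at 1086 ± 47.3 in mutants and 961 ± 81.0 in controls (SD, n = 4 each, limma adjusted p = 0.165). Col17a1, Col23a1, Col25a1 and Col8a1 had log2 fold changes between -0.57 and 0.02, with adjusted p-values of at least 0.542.

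Genes that act on these proteins were counted from lists. In the list of collagen synthesis and crosslinking, 7 of 25 tested genes rose and 1 fell, beside 5.40% and 3.03% of all genes, with a median log2 fold change of 0.08. Of the 7, P4hb, a subunit of prolyl hydroxylase, was not called without control 3 and mutant 2 (limma adjusted p = 0.0501). P4ha2, a prolyl hydroxylase of collagen, averaged 3796 ± 246 normalised reads in mutants and 746 ± 55.1 in controls, and the lysyl oxidase Loxl2 averaged 20281 ± 1077 in mutants and 5397 ± 433 in controls (SD, n = 4 each). Plod1 and Plod2, lysyl hydroxylases, rose by 1.45 and 1.33 on the log2 scale. The gene that fell was Serpinh1, the collagen chaperone Hsp47, at 41678 ± 3700 in mutants and 50509 ± 3409 in controls (SD, n = 4 each, log2 fold change -0.28, limma adjusted p = 0.0487, called in 2 of the 8 fits that left out a library, those without control 1 and without mutant 1). Without control 3 and mutant 2 the adjusted p of Serpinh1 was 0.204. Both P4hb and Serpinh1 were named after their values were seen.

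Of 26 receptors for the matrix, 3 rose, 0 fell and 23 were not called, beside 5.40% higher and 3.03% lower of all genes, with a median log2 fold change of -0.02. Itgb4, the beta subunit of the laminin receptor of epithelia, was at 270 ± 28.1 normalised reads in mutants and 179 ± 17.3 in controls (SD, n = 4 each, log2 fold change 0.59, limma adjusted p = 0.00878). Sdc4, a heparan sulfate proteoglycan of the cell surface, was at 5955 ± 380 in mutants and 4218 ± 316 in controls, and Cd47, a receptor of thrombospondin, at 1170 ± 69.1 in mutants and 815 ± 80.6 in controls (SD, n = 4 each). Itga5, a subunit of the fibronectin receptor, had the next smallest p and was not called (log2 fold change -0.23, adjusted p = 0.0852). Of 22 tested genes for other basement membrane proteins and adapters, 2 rose and 1 fell, with a median of -0.02, again beside 5.40% and 3.03% of all genes. Frem2, a protein of the Fraser complex that anchors epithelia to mesenchyme, was at 11881 ± 1068 in mutants and 8387 ± 465 in controls (SD, n = 4 each, log2 fold change 0.50, limma adjusted p = 0.00119). Papln, papilin, was at 445 ± 40.7 in mutants and 279 ± 39.9 in controls (SD, n = 4 each, log2 fold change 0.68). Grip1, a scaffold that brings Fraser proteins to the cell surface, fell by 0.37 (limma adjusted p = 0.0366), a call that held in 2 of the 8 fits with a library left out, those lacking control 2 and mutant 1, and not without control 3 and mutant 2 (adjusted p = 0.127). Fbln1 was not called (adjusted p = 0.165).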

How the data were processed

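RNA of sorted cells was sequenced in 8 libraries, grouped by their titles. The library kit marks strand, per the labels' protocols. Not given in the sources used here were the counter, its annotation and its use of strand; the submitters' processing notes name STAR 2.5.3a, DESeq2 1.18.1 and mm10. The deposited signal is reads per gene divided by size factors, and the values show a second division with the factors recycled down the genes. Undoing it rebuilt the deposited mean from whole reads for 20254 of 20254 genes (relative tolerance 1e-09), and values divided once were used. The deposited log2 fold changes and p-values, from the authors' fit per the file headers, were an alternative. The deposited score was not used.

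Genes reaching 10 normalised reads in 4 or more libraries (15381, with 57 of 57 members) were compared by limma 3.58.1 in R 4.3.3 on log2(value + 1), with a variance trend, robust to outlying genes, in 1 fit of 8 libraries. p-values were two-sided, adjusted over all genes by Benjamini-Hochberg and called under 0.05. The script was tested on simulated data. Intervals are 95% intervals of limma. Exon lengths and overlaps are from GENCODE M21 (GRCm38). Counting error was not separated from the rest of the spread between libraries, and it weighs more at lower levels. Named were Vhl, called members, the laminins, collagen IV, Nid1, Nid2, Agrn, Hspg2 and Fn1, the leading gene of each other subfamily, Col1a1, Col1a2, Col3a1, members next to the minimum mean, and in each list of other matrix genes up to 4 with the smallest adjusted p. Other genes were named after their values were seen. 1 member is not reported here, though it is counted among the 57. Members and lists were chosen with earlier results of these data known.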

Additional observations from a re-analysis of the deposited data

Results flagged for a closer look

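Of 114 groups of 4 libraries examined, 6 held a library far from the other 3, and chance alone flags about 1 in 20 groups, here 5.70. The measure is the gap to the nearest library as a share of the range of the group. Control 3 was the lowest control for Lamb1, at 12205 normalised reads beside 15234 to 15338 in the others (0.967). Control 2 was the lowest control for Lamc3, at 543 beside 603 to 607 (0.949). Mutant 2 was the highest mutant for Col9a1, at 2261 beside 1691 to 1773 (0.856). Control 1 was the highest control for Col5a3, at 188 beside 82.5 to 94.96 (0.882), for Col6a6, at 439 beside 241 to 261 (0.898), and for Col9a2, at 246 beside 138 to 153 (0.863).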

How the results depend on the processing

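Calls of members kept their direction in each alternative run: of 964 values for single members over 17 settings, 935 stayed on their side of the threshold, 20 lost a call and 9 gained one, in 9 members. All genes called numbered 1297, and 697 on the deposited values without undoing the second division, 766 with the replicate number as a block, 764 without control 3 and mutant 2, and 774 to 1565 when 1 library was left out. Members called higher numbered 4, and 1, 2 and 1 in those settings and 1 to 5 without 1 library. Members called lower numbered 2, and 1 with the deposited values, 4 in the authors' deposited table and 2 to 3 without 1 library. The cause was not tested, other than that fewer libraries entered some fits. With the deposited values Lama5 and Lamb2 were called. Under the block Lamc3 and Nid2 were not (adjusted p = 0.0836 and 0.111) and no other call of a member changed; of the other named genes Grip1, Serpinh1 and Mmp15 were not called (0.0514, 0.136 and 0.0726). Same-numbered libraries did not deviate together (r = 0.213, -0.143, -0.144 and 0.0634), and mutant 2 was closest to control 3, so the numbers were not taken as pairs. Vhl kept its call throughout. Limma-voom with another normalisation called 4 members higher and 2 lower. The 2 count-model tests that had been planned were not run; limma-voom was the test run on the recovered reads.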

Other observations

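Over all genes tested, 5.40% rose and 3.03% fell. Of 12 tested matrix metalloproteinases and their inhibitors, 2 fell by limma and 0 rose, with a median log2 fold change of -0.11. Mmp2, a gelatinase that cuts collagen IV, was at 3862 ± 245 normalised reads in mutants and 4914 ± 474 in controls (SD, n = 4 each, log2 fold change -0.34, adjusted p = 0.0163, not called without mutant 4, and with an adjusted p of 0.0676 without control 3 and mutant 2). The membrane-type protease Mmp15 was at 775 ± 100 in mutants and 1021 ± 73.6 in controls (SD, n = 4 each, limma adjusted p = 0.0217), a call kept in 2 of the 8 fits that left out a library, those without control 1 and without mutant 1. Without control 3 and mutant 2 the adjusted p of Mmp15 was 0.121. The inhibitor Timp1 and the protease Mmp23 were not called (adjusted p = 0.108 and 0.197).

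Of 38 other matrix glycoproteins and proteoglycans, 0 rose and 3 fell, beside the same shares of all genes, with a median of -0.15. Fbn1, the fibrillin of microfibrils, was at 4831 ± 282 in mutants and 6394 ± 408 in controls (SD, n = 4 each, log2 fold change -0.40, limma adjusted p = 0.00230). Thbs3, a thrombospondin, was at 418 ± 27.5 in mutants and 671 ± 53.1 in controls, and Vtn, vitronectin, at 23.5 ± 6.34 in mutants and 66.6 ± 12.6 in controls (SD, n = 4 each, log2 fold changes -0.68 and -1.49). Mfap4, the next by p, was not called (adjusted p = 0.0579). Each of the 3 kept its call whichever library was left out.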
